A study of Mus musculus with 6 samples.

Results

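Of the 20532 circular RNAs (circRNAs) listed for mouse aorta, 2082 (10.1%) had no host gene symbol and lay outside the mitochondrial chromosome. They were taken as all intervals with an empty host field in any of the 6 library tables, joined by chromosome, start and end; the 51 on the mitochondrial chromosome were left out and 18349 had a host symbol. These 2082 are called unhosted here and the 18349 gene-hosted. A name such as circRNAs outside annotated genes would hold for 1489 of them (71.5%). Another 590 (28.3%) overlapped a gene of the RefSeq table of GRCm38.p6, and 3 lay on an unplaced scaffold. The empty field is therefore the definition, and the 2 classes, inside and outside RefSeq genes, are kept apart below.

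The aortae came from 3 groups with 2 libraries each. The high-fat group was ApoE-/- mice fed high-fat food for 3 months, beginning when they were 3 months old, a model of atherosclerosis. The ApoE-/- chow group carried the same genotype, and the C57BL/6J group was wild type on chow; the strain label was C57BL/6 and the ages of the chow mice were not given in the sources used here. Loss of apolipoprotein E slows the clearance of cholesterol-rich lipoproteins from blood. Nothing states that the replicates were separate animals, so p-values may measure technical spread. One conflict was found: the file labelled ApoE-/- chow 1 has columns named after a C57 sample. The label was kept; values without this library are given for the interval in Gm32846 and the medians of other interval reads, and in the ranges over left-out libraries. Both ApoE-/- chow libraries were deposited apart from the other 4, so an effect of diet or genotype and one of batch or age cannot be told apart. High-fat and C57BL/6J libraries differ in both diet and genotype, so those effects cannot be told apart between them either.

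A circRNA forms when a downstream splice donor is joined back to an upstream splice acceptor, so that the ends of the RNA become a ring. The evidence for it is a read across that join, called a junction read, whereas other reads in the interval can also come from linear RNA, introns or, in total RNA, any transcript of the region. Most known circRNAs are built from exons of protein-coding genes, and those without a host gene can stem from unannotated transcripts, from repeats or from misplaced reads. Introns are bounded by few dinucleotides: GT and AG in nearly all cases, GC and AG or AT and AC in a minority.

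No genome was used, so the bases at the ends could be read only where an end fell in a RefSeq promoter window (GRCm38.p6, 250 bases before to 50 after a gene start). Of 33 readable ends of unhosted circRNAs, 33 lay at one of the dinucleotides named above on one strand or the other, as did 230 of 230 ends of gene-hosted circRNAs. Of all positions in the 32817 windows 24.3% carry such a dinucleotide; no source used here says whether the caller required one. All 7 unhosted circRNAs with both ends readable had a donor and an acceptor that match on the same strand, as did 13 of 13 gene-hosted ones. GC, a rare splice donor, stood at 8 of the 33 unhosted ends (24.2%) and at 15 of the 230 gene-hosted ends (6.52%). Of all window positions 7.33% carry GC, out of the 24.3% that carry any of the named dinucleotides. Every readable end lay at a named dinucleotide, so 7.33% is too low as a background for these shares. The following stretches show 3 short unhosted circRNAs that lie whole in a window, and 1 end of a recurrent one, with 10 bases of flank where whole; capitals mark the 2 bases just before the start and just after the end, on the plus strand.
chr13:45358859-45359081, upstream of Gm40933: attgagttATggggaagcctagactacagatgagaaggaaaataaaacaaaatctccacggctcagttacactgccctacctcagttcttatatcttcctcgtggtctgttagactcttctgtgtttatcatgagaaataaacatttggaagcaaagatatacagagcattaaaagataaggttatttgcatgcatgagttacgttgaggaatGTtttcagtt
chr5:140607140-140607309, upstream of Lfng: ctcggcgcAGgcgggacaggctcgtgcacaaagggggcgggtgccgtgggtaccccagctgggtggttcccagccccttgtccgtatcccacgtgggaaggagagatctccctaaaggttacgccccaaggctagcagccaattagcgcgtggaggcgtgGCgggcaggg
chr9:123851904-123852113, upstream of Fyco1: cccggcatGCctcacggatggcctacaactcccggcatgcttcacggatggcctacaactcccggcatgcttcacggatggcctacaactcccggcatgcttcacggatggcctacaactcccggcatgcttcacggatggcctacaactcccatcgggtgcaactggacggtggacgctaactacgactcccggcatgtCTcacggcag
chr4:31512045-31512086, end of the circRNA in Gm42315: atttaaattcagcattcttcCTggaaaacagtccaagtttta

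The first 3 have spans of 203, 150 and 190 bp and 1 junction read each, in 1 library each, which is the common form of an unhosted circRNA. Their starts and ends share bases at the join: 3 bases in the interval by Gm40933, 6 by Lfng, which codes for a glycosyltransferase acting on Notch receptors, and 7 by Fyco1, an adaptor of vesicle transport. The position of such a join cannot be set to a single base. The interval by Fyco1 holds a 30-base unit repeated in tandem over 142 bases, or 4.7 copies, and also lies in the lncRNA gene Gm51700. The end in Gm42315, an uncharacterised lncRNA gene, belongs to a circRNA with 5 junction reads in 2 libraries.

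Library totals ran from 69130844 to 77352690 reads. Junction reads were unequal, 34805 and 16511 in high-fat, 14575 and 14519 in ApoE-/- chow, 26605 and 3706 in C57BL/6J aortae, so C57BL/6J 2 stands apart. Intervals of 5 of 6 smooth muscle marker genes summed to 278.6 and 375.7 RPM (reads scaled to the library total) in high-fat, 313.3 and 223.8 in ApoE-/- chow, and 285.7 and 78.6 in C57BL/6J libraries, again lowest in C57BL/6J 2; Tagln had no interval. Macrophage markers (2 of 4 genes; Cd68 and Lyz2 had no interval) summed to 4.43 and 4.06 RPM in high-fat, 1.22 and 2.17 in ApoE-/- chow, and 1.2 and 1.1 in C57BL/6J libraries, and fibroblast markers (2 of 4; Dcn and Lum had none) to 65.7 and 60.4 RPM in high-fat, 43.0 and 44.2 in ApoE-/- chow, and 44.1 and 29.4 in C57BL/6J libraries. Both sums were higher in the 2 high-fat libraries than in the other 4, and their part in the results was not tested. The Apoe interval (chr7:19696367-19696437) was counted 78 and 75 times in the high-fat libraries, 128 and 86 times in ApoE-/- chow, and 176 and 141 times in C57BL/6J; whether it lies in the deleted part is not known, so it checks no genotype.

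Most unhosted circRNAs were short. Their median span, from start to end, was 202 bp with a middle range of 168 to 326 bp, against 2443 bp for gene-hosted circRNAs, and 995 of them (47.8%) spanned 150 to 200 bp against 9.62% of the gene-hosted. Reads of this study were 150 bases long. Within each library the median span of unhosted circRNAs was 192 to 263.5 bp, and that of gene-hosted circRNAs 856.5 to 3694 bp. The difference averaged -2651 ± 1008.1 bp (SD, n = 6) and had the same sign in 6 of 6 libraries (exact two-sided sign-flip test over libraries, p = 0.03125, the smallest that 6 libraries can give, 0.0357 after Benjamini-Hochberg adjustment over 8 measures). Some circRNAs were seen in several libraries, so these are not fully independent.

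**Figure D1:**
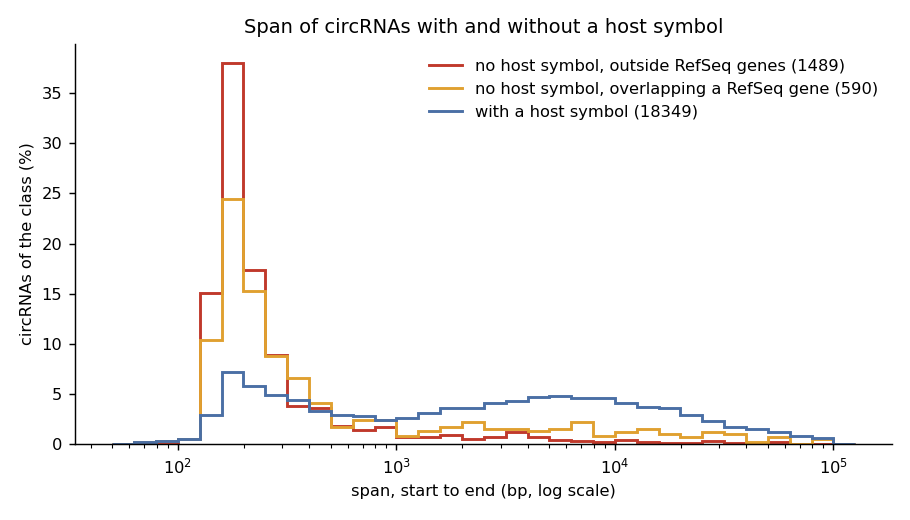
Share of each class of circRNA (percent, vertical axis) by span from start to end (bp, log axis), as steps of equal width on the log axis. Unhosted circRNAs outside RefSeq genes (n = 1489) and overlapping one (n = 590) both peak near 200 bp, while gene-hosted circRNAs (n = 18349) have a broad second rise at several kilobases.

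The length classes were skewed further outside genes. Spans of 150 to 200 bp made up 53.0% of the unhosted circRNAs outside RefSeq genes and 34.4% of those overlapping one. By library the median span was 200 to 428 bp for those overlapping a gene and 190 to 217 bp for those outside (mean difference 110.8 ± 91.2 bp, SD, higher in 6 of 6 libraries, exact sign-flip p = 0.03125, adjusted p = 0.0357). The longest unhosted circRNAs, of 97786, 97683 and 81564 bp, each lay only in part in a gene and spanned it whole: small RNA genes on chromosome 6, a tRNA gene on chromosome 3 and the pseudogene Gm10698 on chromosome 9. The shortest were 70 bp in the pseudogene Ybx1-ps2, 87 bp in the pseudogene Gm5454 and 92 bp in Rgs5, a regulator of G-protein signalling known as a pericyte and smooth muscle gene; each had 1 junction read.

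Their RefSeq neighbours were mixed. Of the 590 overlapping a gene, 541 lay wholly within the bounds of a gene, 263 overlapped a lncRNA gene, 242 a protein-coding gene, 72 a pseudogene and 9 a scRNA gene; 135 overlapped a gene that is named as host of other circRNAs and 455 one that is not. Of gene-hosted circRNAs 99.2% overlapped a RefSeq gene. Outside genes, the median distance to the nearest gene was 15824 bp; 118 lay within 1 kb and 140 more than 100 kb away, with the farthest, chr3:44212483-44212890, at 447729 bp from Gm29739. The 3 chromosomes with the most unhosted circRNAs were 2 (173), 7 (152) and 1 (145). They made up between 6.38% of the circRNAs on chromosome 19 and 13.4% of those on chromosome 12 among the numbered chromosomes. An end shared with a gene-hosted circRNA was rare, at 16 of 2082, and 1 overlapped a RefSeq miRNA hairpin.

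Most were seen once. In 1428 of the 2082 (68.6%) the 6 libraries held a single junction read in all, against 35.8% of gene-hosted circRNAs, and 2031 (97.6%) were seen in 1 library against 78.5%. By library, 7.49 ± 3.63% of unhosted circRNAs had a junction read in another library too, and 45.5 ± 6.14% of gene-hosted (SD, n = 6). The difference of -38.0 points had the same sign in 6 of 6 libraries (exact sign-flip p = 0.03125, adjusted p = 0.0357). Either read number or span, not both at once, was held alike in a further pair of comparisons. Among circRNAs with 1 junction read in a library, 3.66 ± 1.6% of unhosted and 29.4 ± 6.4% of gene-hosted circRNAs were seen elsewhere (6 of 6 libraries, exact p = 0.03125, adjusted p = 0.0357). At spans of 150 to 200 bp the shares were 1.73 ± 0.936% of unhosted and 5.75 ± 2.29% of gene-hosted circRNAs (6 of 6 libraries, exact p = 0.03125, adjusted p = 0.0357).

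Recurrence was mostly inside genes. Of the 51 unhosted circRNAs seen in 2 or more libraries, 42 overlapped a RefSeq gene and 9 did not. By library, 18.0 ± 6.64% of those overlapping a gene and 1.9 ± 1.06% of those outside were seen in another library (SD, n = 6, 6 of 6 libraries, exact sign-flip p = 0.03125, adjusted p = 0.0357). The recurrent 51 had a median span of 2712 bp, and the others 201 bp. They were spread over 31 in exactly 2 libraries, 11 in 3, 6 in 4, 2 in 5 and 1 in 6. Of them, 13 were in both high-fat libraries, 8 in both ApoE-/- chow libraries and 6 in both C57BL/6J libraries; the groups differ in junction read depth, so these counts are not compared.

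**Figure D2:**
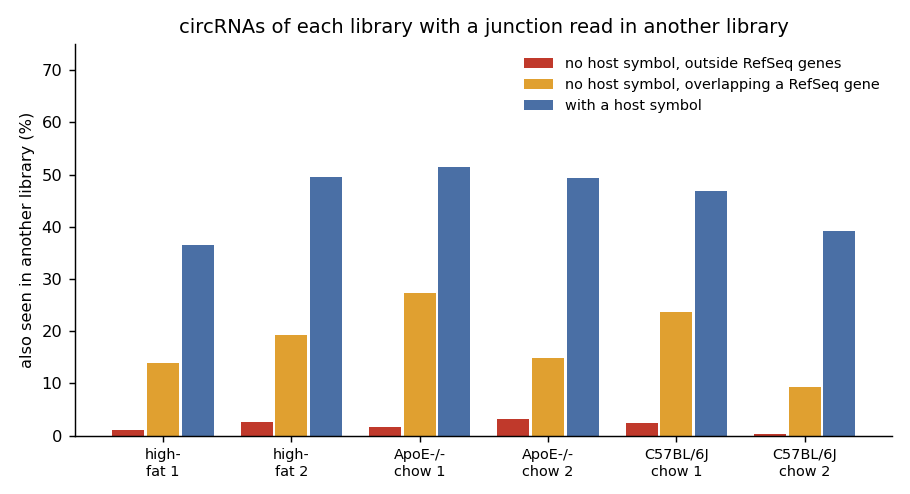
Percent of the circRNAs of each library (horizontal axis) that had a junction read in at least 1 other library, in 3 classes. Unhosted circRNAs outside RefSeq genes stayed at 0.348 to 3.17%, those overlapping a gene at 9.35 to 27.3% and gene-hosted circRNAs at 36.6 to 51.5%.

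High-fat libraries held 781 and 268 unhosted circRNAs with 1121 and 461 junction reads, ApoE-/- chow libraries 192 and 316 with 419 and 530, and C57BL/6J libraries 214 and 395 with 498 and 578. High-fat 1 had the most of both, and ApoE-/- chow 1 the fewest. Unhosted and gene-hosted junction reads ordered the libraries differently. Scaled to the library total, unhosted circRNAs had 14.7 and 6.02 RPM of junction reads in high-fat aortae, 5.42 and 7.02 in ApoE-/- chow, and 6.94 and 8.36 in C57BL/6J libraries. For gene-hosted circRNAs the values were 440.7 and 209 RPM in high-fat, 182.9 and 185.1 in ApoE-/- chow, and 360.5 and 44.8 in C57BL/6J libraries. C57BL/6J 2 thus held the lowest gene-hosted level and the second highest unhosted level. The unhosted share of all junction reads was 3.22% and 2.8% in high-fat, 2.88% and 3.66% in ApoE-/- chow, and 1.89% and 15.7% in C57BL/6J libraries.

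**Figure D3:**
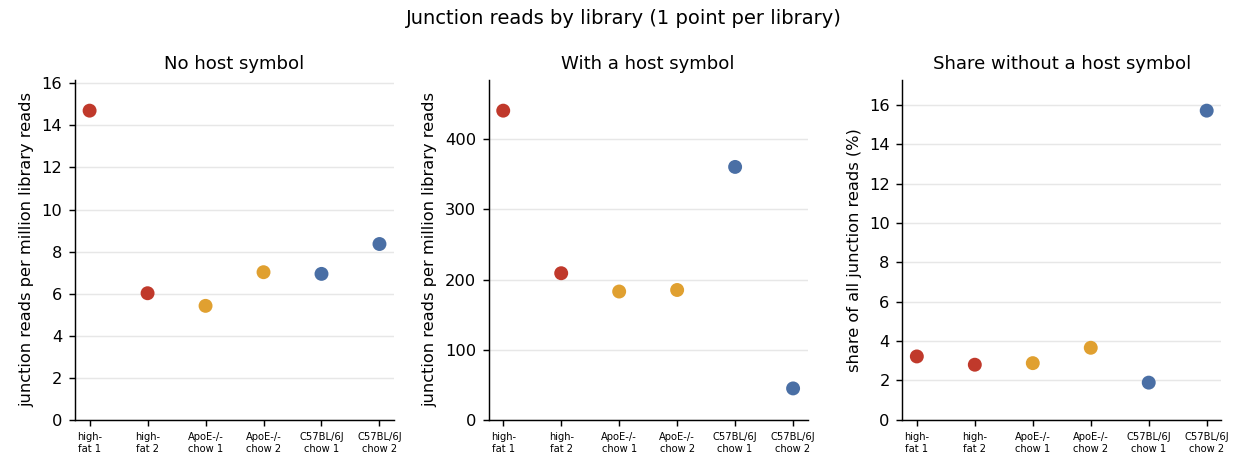
Junction reads in RPM of unhosted circRNAs (left) and gene-hosted circRNAs (middle), and the unhosted share of all junction reads in percent (right), 1 point per library, with a separate vertical scale in each panel. C57BL/6J 2 has 8.36 RPM unhosted against 44.8 RPM gene-hosted, and a share of 15.7%; the other 5 libraries lie at 1.89 to 3.66%.

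The groups overlapped in each of these. The unhosted share of junction reads was 3.01 ± 0.3% in high-fat and 6.03 ± 6.49% in both chow groups together (SD, n = 2 and n = 4; exact two-sided permutation over libraries, p = 0.733, adjusted p = 0.933 over 4 measures). The share of circRNAs was 7.41 ± 1.95% in high-fat and 9.71 ± 8.19% in chow libraries (exact p = 0.933, adjusted p = 0.933). The median span was 209.5 ± 14.8 bp in high-fat and 219.0 ± 31.2 bp in chow libraries (exact p = 0.8, adjusted p = 0.933). The junction read level was 10.4 ± 6.12 RPM in high-fat and 6.93 ± 1.2 RPM in chow libraries (exact p = 0.333, adjusted p = 0.933). With 2 libraries against 4, the smallest p these tests allow is that of 1 in 15 arrangements, which cannot pass 0.05, and the sign of the first 2 differences turns without C57BL/6J 2, at 0.205 and 1.72 points. Thinned to 3678 junction reads per library, unhosted circRNAs were 4.91% and 4.1% of those seen in high-fat, 4.09% and 5.39% in ApoE-/- chow, and 2.57% and 21.8% in C57BL/6J libraries. Unthinned, these shares were 8.8% and 6.03% in high-fat, 5.47% and 7.64% in ApoE-/- chow, and 3.96% and 21.8% in C57BL/6J libraries.

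Reads of the whole interval were also compared. In 23 unhosted intervals outside genes of at least 5 kb that overlap no other listed interval, the median was 16.5 and 10.3 reads per kb in high-fat, 14.5 and 16.4 in ApoE-/- chow, and 8.42 and 19.4 in C57BL/6J libraries. The level was highest in C57BL/6J 2, where the share of unhosted circRNAs was also highest, and lowest in C57BL/6J 1, where that share was lowest. The 26 such intervals inside genes also had their highest median in C57BL/6J 2, at 18.4 reads per kb, and their lowest in C57BL/6J 1, at 8.64. The part of such reads in the number of unhosted circRNAs was not tested.

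A few unhosted circRNAs carried many junction reads. Only 14 had at least 10, and together they held 558 (15.5%) of the 3607 unhosted junction reads; 10 of the 14 overlapped a RefSeq gene, and 8 fell under the naming rule while 6 were taken after their values were seen. All 14 were seen in at least 2 libraries. They gave 130 and 85 junction reads in high-fat aortae, 99 and 85 in ApoE-/- chow, and 153 and 6 in C57BL/6J libraries, so C57BL/6J 2 held almost none of these reads while it held 578 unhosted junction reads in all. Of the 48 with at least 5 junction reads, 17 were seen in 1 library alone.

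The largest was chr11:98263470-98267858 (4389 bp), inside Cdk12, a kinase that phosphorylates RNA polymerase II, which is named as host of other circRNAs in the tables. It had 55 and 35 junction reads in high-fat aortae, 39 and 45 in ApoE-/- chow, and 64 and 0 in C57BL/6J libraries. It was present in 5 libraries and absent in the shallow one. Per 100000 junction reads of the library this was 158 and 212 in high-fat, 268 and 310 in ApoE-/- chow, and 241 and 0 in C57BL/6J; a count of 0 in C57BL/6J 2 allows up to 80.9 (3 reads, counting error only), which is below the other 5 libraries. The interval held 86 reads of any kind in C57BL/6J 2 and 141 to 211 in the other 5. Without the junction reads these were 86 and 106 to 156. This circRNA alone held 6.6% of all unhosted junction reads.

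The largest outside genes was chr2:98662570-98666517 (3948 bp), 36082 bp from Gm33780. It had 0 and 20 junction reads in high-fat aortae, 35 and 20 in ApoE-/- chow, and 20 and 0 in C57BL/6J libraries. It shared its stretch of chromosome 2, positions 98662513 to 98666517, with 6 more unhosted circRNAs, the most at any place, which brought the junction reads to 1 and 21 in high-fat, 41 and 23 in ApoE-/- chow, and 22 and 0 in C57BL/6J libraries. As background, short-read studies of mouse list this stretch as a place of high signal from satellite repeats; the part of such reads here was not tested. The 2 libraries without this circRNA, high-fat 1 and C57BL/6J 2, belong to different groups.

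The only unhosted circRNA in all 6 libraries was chr6:42519201-42521000 (1800 bp), in the bounds of the lncRNA gene Gm34752 and the pseudogene Gm4877. It had 9 and 2 junction reads in high-fat aortae, 3 and 6 in ApoE-/- chow, and 15 and 2 in C57BL/6J libraries. These raw counts overlapped between groups. Per 100000 junction reads they were 25.9 and 12.1 in high-fat, 20.6 and 41.3 in ApoE-/- chow, and 56.4 and 54.0 in C57BL/6J libraries. The 54.0 in C57BL/6J 2 rests on 2 of its 3706 junction reads, and 3 reads there would give 80.9. That library can therefore not be ranked against the others on this scale. The log2 fold change was -1.28 ± 1.74 (SE) in high-fat against C57BL/6J and -0.80 ± 1.74 in ApoE-/- chow against C57BL/6J (edgeR adjusted p = 1.0 in both). It shares its end with a gene-hosted circRNA, and its interval holds no other read.

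Of the 110 unhosted circRNAs with no other read in the interval, 99 overlapped another listed interval (90%), against 3.6% of the rest. The absence of other reads there can therefore not be read as absence of linear RNA. The same goes for chr10:125339139-125377578 (38440 bp), inside Slc16a7, which codes for the monocarboxylate transporter MCT2. This one had 0 and 3 junction reads in high-fat aortae, 2 and 3 in ApoE-/- chow, and 11 and 1 in C57BL/6J libraries, and was absent in high-fat 1 although that library had the most junction reads.

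chrX:9773352-9786596 (13245 bp), inside Sytl5, a synaptotagmin-like protein of vesicle transport, had junction reads in the high-fat group alone. It had 20 and 5 junction reads in high-fat libraries, against 0 and 0 in ApoE-/- chow and 0 and 0 in C57BL/6J libraries. Its interval held 130 and 59 reads of any kind in high-fat, 105 and 125 in ApoE-/- chow, and 79 and 101 in C57BL/6J libraries, so the groups overlapped there. It reached the minimum for testing through the high-fat libraries alone, so no test is given in that direction. It has 25 reads in all, and the 20 in high-fat 1 come from the library with the most junction reads. Per 100000 junction reads its high-fat values were 57.5 and 30.3. A count of 0 allows up to 20.6 and 20.7 in ApoE-/- chow, and 11.3 and 80.9 in C57BL/6J libraries. The 0 in C57BL/6J 2 therefore does not set that library apart from high-fat.

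chr10:82368571-82383844 (15274 bp), partly in Gm4924, had no junction read in the high-fat libraries. It had 0 and 0 junction reads in high-fat aortae, against 7 and 0 in ApoE-/- chow and 14 and 1 in C57BL/6J libraries. The groups overlapped, since ApoE-/- chow 2 also had 0, and no test is given, since it reached the minimum through chow libraries alone. Its interval held 254 and 119 reads of any kind in high-fat, 278 and 262 in ApoE-/- chow, and 162 and 254 in C57BL/6J libraries. A circRNA inside the zinc finger gene Zfp141 (chr7:42488470-42490276, 1807 bp) had 10 and 0 junction reads in high-fat aortae, 0 and 0 in ApoE-/- chow, and 8 and 2 in C57BL/6J libraries. Per 100000 junction reads this was 28.7 and 0.0 in high-fat, 0.0 and 0.0 in ApoE-/- chow, and 30.1 and 54.0 in C57BL/6J libraries. The high-fat libraries differed from each other, and the 54.0 in C57BL/6J 2 rests on 2 reads. This circRNA reached the minimum through high-fat 1 and C57BL/6J 1 alone, so no test is given for it either.

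**Figure D4:**
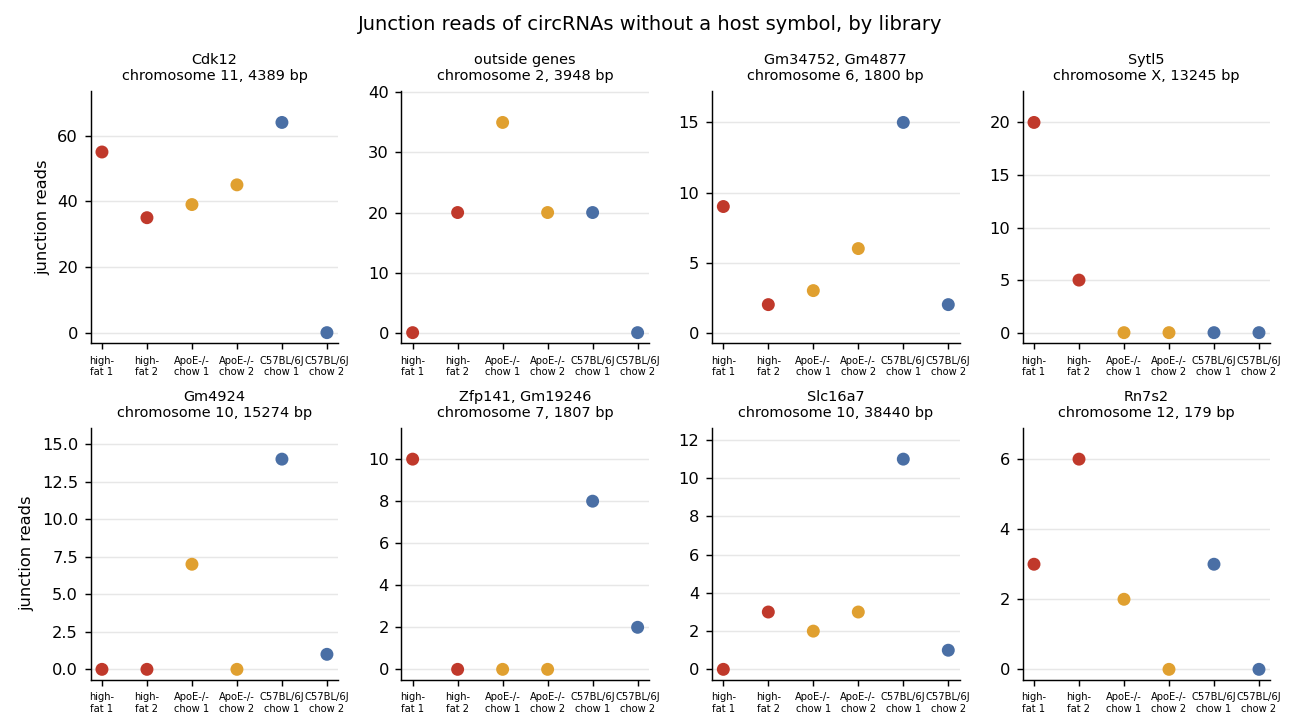
Junction reads (vertical axis, separate scale per panel) of the 8 unhosted circRNAs with most junction reads among those named by rule, 1 point per library, with the overlapped RefSeq gene, chromosome and span above each panel. Among these 8, only the circRNA in Sytl5 has reads in both high-fat libraries and none in the other 4. Of all unhosted circRNAs, 3 were seen in both high-fat libraries and in no other. The same count was 0 for ApoE-/- chow and 0 for C57BL/6J. No such counts were made for gene-hosted circRNAs, so no background stands beside them. The groups differ in junction read depth, so these counts are not compared.

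The remaining circRNAs with at least 10 junction reads were uneven between libraries. The one in Lncpint, a lncRNA gene induced by p53, had 11 and 0 junction reads in high-fat aortae, 2 and 4 in ApoE-/- chow, and 1 and 0 in C57BL/6J libraries. The one in Lcor, a corepressor of nuclear receptors, had 4 and 2 in high-fat, 7 and 0 in ApoE-/- chow, and 3 and 0 in C57BL/6J libraries. That in Ank2, which codes for the membrane adaptor ankyrin-B, had 1 and 3 in high-fat, 0 and 0 in ApoE-/- chow, and 9 and 0 in C57BL/6J libraries. None of these 3 separated high-fat from both chow groups, in raw counts. Outside genes, chr7:41611676-41613251 had 11 and 1 junction reads in high-fat aortae, 2 and 0 in ApoE-/- chow, and 1 and 0 in C57BL/6J libraries. Both chr13:34607869-34612265, with 6 and 0 in high-fat, 0 and 5 in ApoE-/- chow, and 4 and 0 in C57BL/6J libraries, and chr12:11516671-11516871, with 0 and 8 in high-fat, 0 and 2 in ApoE-/- chow, and 0 and 0 in C57BL/6J libraries, were missing from 1 library of a group that had them.

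Some unhosted circRNAs crowded at 1 place. Besides the stretch on chromosome 2, Rn7s2, a gene of 7SL, the RNA of the signal recognition particle, held 6 with 23 junction reads, and Srcap, a chromatin remodelling ATPase, held 6 with 19. The 6 in Rn7s2 had 3 and 6 junction reads in high-fat aortae, 6 and 1 in ApoE-/- chow, and 7 and 0 in C57BL/6J libraries. The most counted of them, chr12:69361259-69361437, had 1905 and 4520 reads of any kind in its 179 bp in high-fat, 2788 and 2483 in ApoE-/- chow, and 4501 and 875 in C57BL/6J libraries, the highest number over the 6 libraries of any unhosted interval. Those in Srcap had 11 and 1 junction reads in high-fat aortae, 1 and 4 in ApoE-/- chow, and 2 and 0 in C57BL/6J libraries. The lncRNA gene Gm26705 on chromosome 7 and a stretch outside genes on chromosome 12 (positions 9085923 to 9153199) held 4 each, with 11 and 7 junction reads. Of 1991 places, 1932 held a single unhosted circRNA.

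A rank by mean level per 100000 junction reads gave weight to the shallow library. Of the 15 highest by that measure, 9 were seen in C57BL/6J 2 alone, with 4 to 9 junction reads. The largest was chr2:15079762-15079949 (188 bp) in Arl5b, a small GTPase, with 9 junction reads in C57BL/6J 2, the most of any unhosted circRNA seen in 1 library, and 0 in the other 5 libraries. Next were chr3:5860629-5860740 (112 bp), 109334 bp from the nearest gene, with 7, and chr14:24874952-24875361 (410 bp) in the lncRNA gene Gm32008 with 6.

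Tests of junction reads between groups covered few of them. Only 7 of the 2082 had at least 5 junction reads in at least 2 libraries, among 1015 circRNAs tested. By edgeR's quasi-likelihood test, 0 of the 7 passed an adjusted p of 0.05 in high-fat against ApoE-/- chow (background 0.0985% of all tested called), 0 in high-fat against C57BL/6J (0.0985%), 0 in ApoE-/- chow against C57BL/6J (0.0%) and 0 in high-fat against both chow groups (0.0985%). DESeq2 also called 0 of them in each of the 4. At an unadjusted p under 0.05 there were 2, 1, 0 and 2 in the same order, or 28.6%, 14.3%, 0.0% and 28.6% of the 7, against 5.32%, 4.63%, 5.52% and 6.31% of all tested. Nothing is read from these shares, because a circRNA could reach the read minimum through its high libraries alone, as those in Sytl5 (high-fat) and Gm4924 (chow) did.

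The other reads of the interval, the count without junction reads, could be tested for 931 unhosted circRNAs among 11475, with at least 10 such reads in at least 2 libraries. By edgeR 0 of the 931 passed in any of the 4 comparisons, with 0.0%, 0.0%, 0.0% and 0.0261% of all tested called in the same order, and DESeq2 called 0 as well. At an unadjusted p under 0.05 there were 15, 32, 31 and 29, or 1.61%, 3.44%, 3.33% and 3.11% of the 931, near the 1.99%, 3.8%, 2.76% and 3.28% of all tested. The median log2 fold change of the 931 was -0.18, -0.3, -0.14 and -0.21, and of all tested 0.03, -0.02, -0.03 and 0.03. Without C57BL/6J 2 the last 3 medians of the unhosted turn to 0.26, 0.43 and 0.06, so their direction rests on that library. Without C57BL/6J 1 the last 3 are -0.66, -0.51 and -0.39, and without ApoE-/- chow 1 the third is -0.03. The first stayed negative whichever library was left out, but ran from -0.36 without high-fat 1 to -0.03 without ApoE-/- chow 2. In bulk tissue, fewer cells of a type and less RNA per cell cannot be told apart.

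The smallest p by these reads belonged to chr7:17447745-17503922 (56178 bp), inside the lncRNA gene Gm32846, which had 2 junction reads, both in high-fat 2. Its interval held 71 and 51 reads of any kind in high-fat, 393 and 65 in ApoE-/- chow, and 226 and 399 in C57BL/6J libraries. The library labelled ApoE-/- chow 1 lies with the C57BL/6J libraries, and ApoE-/- chow 2 with the high-fat ones. The log2 fold change of high-fat against C57BL/6J was -2.72 ± 0.66 (SE; edgeR adjusted p = 0.343) and that against ApoE-/- chow -1.91 ± 0.65 (adjusted p = 0.999), which becomes -0.22 without ApoE-/- chow 1. This interval lies 2.19 Mb from the Apoe interval, and no other listed interval overlaps it. The columns of ApoE-/- chow 1 are the ones named after a C57 sample; what sets this library's value was not tested.

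**Figure D5:**
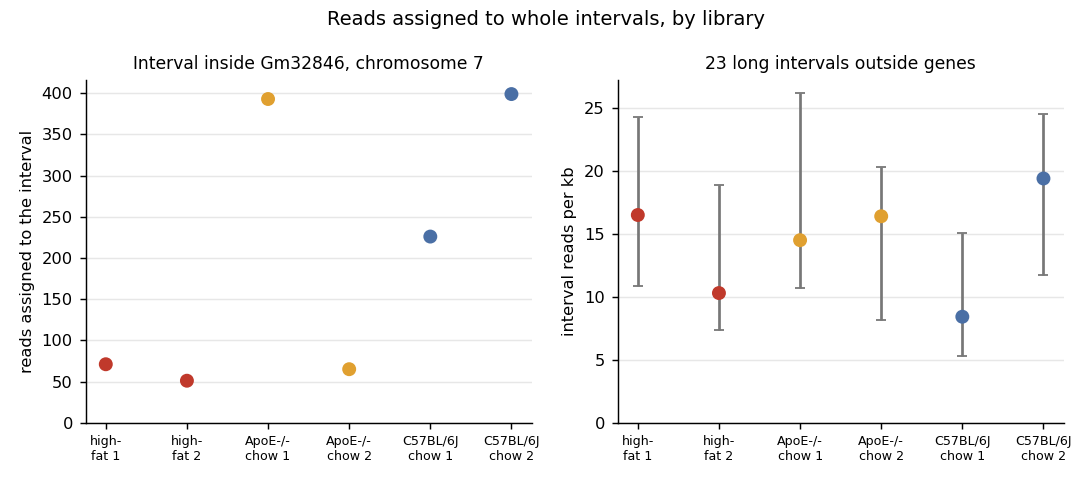
Left, reads assigned to the interval inside Gm32846, 1 point per library. Right, reads per kb of 23 unhosted intervals outside genes of at least 5 kb, with the median as point and the lowest and highest interval as bar ends; the medians run from 8.42 in C57BL/6J 1 to 19.4 in C57BL/6J 2.

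Further intervals with a small unadjusted p were short and thinly covered. Reads of any kind in chr3:37321970-37322120 (151 bp), 520 bp from Bbs12, a gene of a ciliary chaperonin complex, were 3 and 20 in high-fat, 20 and 10 in ApoE-/- chow, and 0 and 0 in C57BL/6J libraries. It reached the minimum through the ApoE-/- libraries alone, so no test is given. chr6:141501796-141501950 in Pde3a, a phosphodiesterase of vascular smooth muscle, was covered by 27 and 28 reads in high-fat aortae, by 17 and 13 in ApoE-/- chow, and 3 and 6 in C57BL/6J libraries. This interval too reached the minimum through the ApoE-/- libraries alone, so no test is given. The high-fat libraries were above the other 4 there, in an interval picked for its small p. How many intervals separate so was not counted. At chr6:141501175-141501607, also in Pde3a, ApoE-/- chow 1 (50 reads) exceeded both high-fat libraries (43 and 47). The remaining chow libraries (28, 20 and 1) did not. In Tnk2, which codes for a tyrosine kinase, chr16:32644424-32644602 was covered by 10 and 14 reads in high-fat aortae, by 17 and 29 in ApoE-/- chow, and 47 and 22 in C57BL/6J libraries (high-fat against C57BL/6J -1.92 ± 0.68 on the log2 scale for its other reads, adjusted p = 0.999).

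The share of interval reads that cross the junction was 1.26 ± 0.444% for unhosted and 1.21 ± 0.546% for gene-hosted circRNAs (SD, n = 6), higher in 3 of 6 libraries (exact sign-flip p = 0.844, adjusted p = 0.844). The mean number of junction reads of a circRNA seen in a library was 1.8 ± 0.372 for unhosted and 3.85 ± 0.935 for gene-hosted circRNAs, lower in 6 of 6 libraries (exact p = 0.03125, adjusted p = 0.0357). Other reads of the interval were present in all 6 libraries for 62.3% of unhosted and 63.3% of gene-hosted circRNAs. No other read at all was found for 5.28% of unhosted and 26.2% of gene-hosted circRNAs. Span and overlap with other listed intervals were not matched between the classes, for these shares or for the crossing share.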

How the data were processed

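Total RNA of mouse aorta was sequenced as 150-base read pairs on an Illumina sequencer from NEBNext Ultra libraries, per the labels' protocols. Per the submitters' processing notes, TopHat and HTSeq were used with GRCm38 (mm10), with no version or order stated; the back-splice caller and strand setting are not given in the sources used here. Per the file headers, the deposited tables hold a count column (reads per interval), an RPM column and a junction column of counts. The deposited RPM is that count scaled to the library total, so the library total was computed from both.

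Other interval reads are the count minus junction reads, a measure added after the data were seen. Positions were compared with RefSeq gene bounds of GRCm38.p6, which hold no exons. Counts of all listed circRNAs, mitochondrial ones included, were tested with edgeR 4.0.16 (quasi-likelihood, robust, TMM, R 4.3.3; DESeq2 1.42.0 as alternative) over all 6 libraries with 3 residual degrees of freedom, at least 5 junction or 10 other reads in 2 libraries, and Benjamini-Hochberg adjustment. Standard errors were taken as fold (log2) over the root of F. The code was tested on simulated data. Library values were compared by exact permutation or sign flips (scipy 1.17.1). The limit for a count of 0 is 3 reads per library.

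Named circRNAs are, by rule, the 15 highest by mean junction reads per 100000, those past the threshold or the 5 smallest p per comparison, those in at least 5 libraries, the 5 most crowded places, the 3 longest and 3 shortest, the 5 with most other reads, and 5 each by junction reads in a gene and by distance from genes; 67 were named so. Members, lists and tests were chosen with earlier results of these data known. Replicate numbers showed no clear pairing of the libraries: deviations of same-numbered libraries correlated at -0.03 to 0.05 by junction reads. By other interval reads they correlated at -0.11 to 0.1. Low correlations cannot exclude a pairing.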

Additional observations from a re-analysis of the deposited data

Results flagged for a closer look

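The unhosted share of junction reads in C57BL/6J 2, 15.7%, lay far from the other chow libraries, at 2.88% and 3.66% in ApoE-/- chow and 1.89% in C57BL/6J 1. Its gap to the nearest of them was 0.872 of the range of the 4 chow libraries, above Dixon's critical value of 0.829. Chance flags about 1 in 20 such groups, and 9 values were checked. The library had 3706 junction reads in all, 44.8 RPM of gene-hosted junction reads and 19.4 reads per kb in long intervals outside genes; the part of these in the share was not tested.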

How the results depend on the processing

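Leaving out 1 library at a time moved the difference of high-fat from both chow groups between -4.4 and 0.205 points for the unhosted share of junction reads, -4.22 and 1.72 points for the share of circRNAs, -20.0 and 5.33 bp for the median span, and -0.914 and 7.75 RPM for junction reads. The sign turned without C57BL/6J 2 for both shares, without C57BL/6J 1 (5.33) or high-fat 1 (1.0) for the span, and without high-fat 1 for the RPM level. Unhosted minus gene-hosted, the ranges were -3048.3 to -2482.2 bp for the span, -2.31 to -1.91 for mean reads, -38.0 to -34.2 points for recurrence, -25.6 to -22.3 at the lowest read number, -4.59 to -2.62 at 150 to 200 bp and -0.0733 to 0.101 for the crossing share. Between unhosted circRNAs overlapping a gene and those outside they were 12.7 to 17.1 points for recurrence and 85.7 to 131.1 bp for span. With 5 libraries the smallest p is 0.0625, so none can pass. The crossing share turned without C57BL/6J 2 (-0.0733) and with at least 2 junction reads (-0.343), and for circRNAs outside genes it was 0.671 points above gene-hosted and passed; the cause was not tested.

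The number of unhosted circRNAs called stayed 0 under the alternatives run, except 1 by other reads in high-fat against C57BL/6J without C57BL/6J 1 (range 0 to 1), chr6:141501175-141501607 in Pde3a (1 of 884 unhosted and 131 of 11207 in all), with 43 and 47 interval reads in high-fat and 20 and 1 in C57BL/6J libraries, where the lone C57BL/6J library is assumed to vary like the others. In ApoE-/- chow that Pde3a interval held 50 and 28 reads, so high-fat overlapped ApoE-/- chow there. Single folds turned 5 times: Cdk12 to 0.1 against ApoE-/- chow with library totals as scale and to -0.32 against C57BL/6J without C57BL/6J 2, the circRNA partly in Gm4924 to 0.15 in ApoE-/- chow against C57BL/6J without ApoE-/- chow 2, and chr2:98662570-98666517 to 0.33 without high-fat 1 and 2.27 without C57BL/6J 1, both against both chow groups. Over the left-out libraries the folds that so turned ran from -0.32 to 7.98 for Cdk12, -1.18 to 0.15 for Gm4924 and -7.08 to 2.27 for the one on chromosome 2. With library totals, the median log2 fold change of all circRNAs tested by junction reads in high-fat against both chow groups was 1.03, and 0.55 with TMM.

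With the replicate number as a block, 0 were called in each comparison by either measure, and the share difference stayed -3.02 points. The replicate numbers are known only from the sample titles. For other reads in high-fat against C57BL/6J (correlation -0.11), crossed pairing also called 0 unhosted circRNAs. Depth limits the comparisons: 7 unhosted circRNAs reached the junction read minimum.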
